A study of Mus musculus with 6 samples.

Results

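Small leucine-rich proteoglycans (SLRPs) are secreted matrix proteins with a core of leucine-rich repeats, and most carry glycosaminoglycan chains. They were followed here in irradiated mouse femur through 10 genes chosen by name: Dcn, Bgn, Lum, Fmod, Omd, Ogn, Aspn, Prelp, Kera and Epyc. All 10 symbols were found among the 43346 genes of the count table. The libraries came from bulk RNA of bone pieces with their marrow, taken from C57BL/6 mice aged 4 months. In the radiated group an image-guided X-ray beam had given a single focal dose of 24 Gy to 5 mm of the distal metaphysis of the right femur, the trabecular bone next to the growth plate. In the non-radiated group the piece came from the left femur, the contralateral control, so both groups stem from animals that had been irradiated in 1 leg. Both groups were harvested at day 21, muscle was removed before the bone was homogenized, and each group had 3 libraries. The labels give no sex and do not say whether bones were pooled, or that the 3 libraries of a group came from separate mice, so p-values measure only the spread between these libraries.

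The family is grouped by sequence. Decorin (Dcn), biglycan (Bgn) and asporin (Aspn) form class I, lumican (Lum), fibromodulin (Fmod), PRELP (Prelp), keratocan (Kera) and osteoadherin (Omd) form class II, and osteoglycin (Ogn) and epiphycan (Epyc) belong to class III. Many of them bind collagen fibrils and set fibril diameter and spacing, and several bind growth factors of the TGF-beta family. In bone, biglycan and decorin are the best known members, osteoadherin is made by osteoblasts and osteocytes, fibromodulin is abundant in tendon and cartilage, and epiphycan is a growth plate cartilage product.

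Library totals ran from 34034251 to 48708383 counts. Non-radiated library 2 stood apart, because 32.9% of its counts were in 1 row, AY036118, against 0.321% to 5.61% in the other 5. Levels are therefore given as CPM (a gene count per 1000000 counts) of a library size scaled by TMM, the trimmed mean of M-values, which makes them relative to the bulk of genes. The osteoblast and osteocyte markers checked for the tissue label were all measured, with a summed level of 1326 to 1926 CPM in non-radiated and 1188 to 1530 CPM in radiated libraries. Transcripts of 12 skeletal muscle markers summed to 194, 343 and 167 CPM in non-radiated libraries 1, 2 and 3 and to 745, 2465 and 198 CPM in radiated libraries 1, 2 and 3, so muscle RNA was most abundant in radiated library 2.

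Most SLRP genes sit in clusters, which the choice of members did not use. In the coordinates of the count table, Dcn, Lum, Kera and Epyc lie in a row on chromosome 10 (97479500 to 97682454, 203.0 kb). Aspn, Omd and Ogn follow Ecm2 on chromosome 13 (49504810 to 49624500, 119.7 kb). Prelp lies 115839 bases from Fmod on chromosome 1, with Optc on its other side. Bgn is on chromosome X (73483602 to 73495933). Aspn, Omd and Ogn lie inside the span of Cenpp, a centromere protein gene on the other strand, but share 7, 0 and 0 exon bases with it in GENCODE M21. Cenpp averaged 17.0 CPM without and 13.9 CPM with radiation (edgeR adjusted p 0.247), with overlapping groups. The part of Cenpp reads in the values of Aspn, Omd and Ogn was not tested. Prelp overlaps Gm15851 and Epyc overlaps Gm10754, and reads of such pairs cannot be told apart if strand was ignored in counting.

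The stretches just before the starts of Fmod, Prelp, Ogn and Bgn are shown because these are the 4 members that were higher after radiation. They are RefSeq sequences of GRCm38.p6, 5′ to 3′ on the gene's strand, up to 250 bases before the RefSeq start, at chr1:134037004-134037253 (plus strand), chr1:133921415-133921651 (minus strand), chr13:49607765-49608014 (plus strand) and chrX:73483351-73483600 (plus strand). For Prelp, 13 bases that GENCODE M21 places in an exon were left out. Capitals mark matches on either strand to any of 5 short motifs. The TATA box, which places transcription starts, was searched as TATAAA. The core of sites for RUNX factors of bone was searched as TGTGGT. The site of AP-1 factors was searched as TGANTCA. The E-box of basic helix-loop-helix factors was searched as CANNTG. The GC box of Sp-type factors was searched as GGGCGG.
Fmod: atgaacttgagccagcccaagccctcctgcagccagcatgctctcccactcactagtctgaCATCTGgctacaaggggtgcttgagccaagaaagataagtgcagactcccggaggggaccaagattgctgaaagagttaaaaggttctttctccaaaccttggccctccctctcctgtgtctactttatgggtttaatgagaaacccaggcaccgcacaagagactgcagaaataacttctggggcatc
Prelp: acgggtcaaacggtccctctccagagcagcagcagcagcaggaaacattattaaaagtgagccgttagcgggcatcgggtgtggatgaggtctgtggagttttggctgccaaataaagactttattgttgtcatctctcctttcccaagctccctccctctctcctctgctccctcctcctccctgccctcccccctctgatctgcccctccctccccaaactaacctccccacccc
Ogn: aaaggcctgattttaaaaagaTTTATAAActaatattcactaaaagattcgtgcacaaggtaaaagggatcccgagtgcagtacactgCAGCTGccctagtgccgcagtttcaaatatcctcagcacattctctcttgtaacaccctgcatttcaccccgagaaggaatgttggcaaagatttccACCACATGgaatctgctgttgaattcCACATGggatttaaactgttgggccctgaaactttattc
Bgn: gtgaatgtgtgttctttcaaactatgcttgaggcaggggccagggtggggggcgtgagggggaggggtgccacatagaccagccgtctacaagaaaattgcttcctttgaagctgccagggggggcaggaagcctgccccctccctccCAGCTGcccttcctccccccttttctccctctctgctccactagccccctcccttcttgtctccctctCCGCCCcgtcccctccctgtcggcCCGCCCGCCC
The 4 sequences shared no motif of the 5. The Bgn stretch held 3 GC boxes and was 64.4% G or C, against a median of 52.0% over 27025 promoters, 1 per gene. The Ogn stretch was 42.0% G or C and held the TATA box on both strands at 1 place, 3 E-boxes and 1 RUNX core, which overlaps an E-box. Fmod held 1 E-box and Prelp none of the 5. Over the same 250 bases of all promoters, 66.0% held an E-box, 32.9% a GC box, 14.2% the RUNX core, 13% the TATA box and 6.9% the AP-1 motif. A match is a run of letters and not a binding site. Among the 10 members, 8 had an entry in the RefSeq promoter table, and those without one were Dcn and Lum.

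Divided by gene length, as CPM per kilobase (kb), the members differed widely in level. In non-radiated femur the order of mean levels was Dcn at 54.4 ± 14.4, Bgn at 41.9 ± 4.33, Lum at 26.9 ± 9.79, Ogn at 6.91 ± 2.02, Fmod at 5.40 ± 1.63, Prelp at 5.20 ± 0.599, Omd at 3.08 ± 1.32, Aspn at 2.996 ± 1.85, Epyc at 1.56 ± 0.746 and Kera at 0.0345 ± 0.0314 CPM per kb (mean ± SD, n = 3). Neighbours in this order overlapped over the 3 libraries except at 3 steps, from Lum to Ogn, from Prelp to Omd and from Epyc to Kera. In radiated femur Bgn, at 58.0 ± 7.56 CPM per kb, came ahead of Dcn, at 53.6 ± 10.8 CPM per kb, with overlapping ranges, and Aspn, at 5.02 ± 1.89 CPM per kb, ahead of Omd, at 4.22 ± 0.717 CPM per kb, also overlapping.

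**Figure D1:**
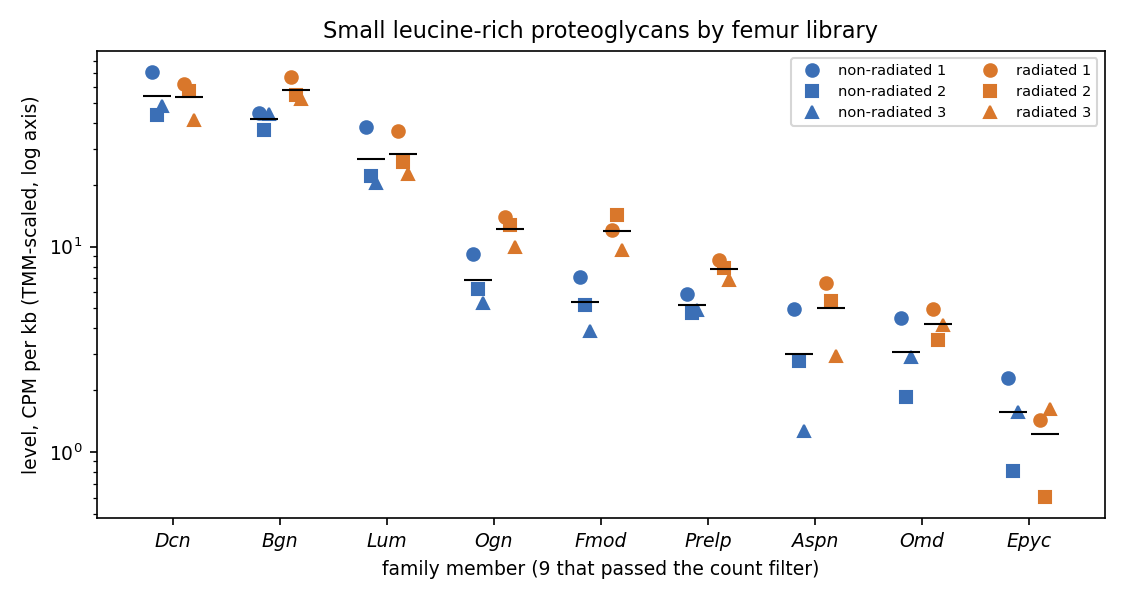
Level of each member in CPM per kb (log axis) in each of the 6 libraries, with short lines at the group means and Kera, under the count filter, left out. Dcn, Bgn and Lum lie above the other 6, and the radiated libraries lie above the non-radiated ones for Bgn, Ogn, Fmod and Prelp.

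Of the 9 members that passed the filter on low counts, 4 rose in radiated femur and none fell. They were Fmod, Prelp, Bgn and Ogn. The background was 856 of 18757 genes tested called higher, or 4.56%, 3.24% called lower and 7.8% called in either direction, by edgeR's quasi-likelihood test with Benjamini-Hochberg adjustment over all genes tested. The groups did not overlap for the same 4 members, against 25.9% of the genes tested. The members were chosen with earlier results of these data known, so both comparisons with all genes are descriptions. Scaling by library totals alone shifted the median of all genes to 0.19. Under it 1000 genes were called (5.33% of those tested), 854 of them higher, and 5 members were called, all higher. The median log2 fold change of the 9 tested members was 0.47, and that of all genes tested was 0.0023. All 9 had at least 52 counts in each library, so none passed the filter through 1 group alone. Below, the values of a group are listed in the order of libraries 1, 2 and 3. In bulk bone a higher share of SLRP-making cells and more RNA per cell cannot be told apart.

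In class I, Bgn rose, and Dcn and Aspn did not pass the test. Bgn (ENSMUSG00000031375), which encodes biglycan, a proteoglycan of bone matrix with chondroitin or dermatan sulfate chains, had 271, 225 and 271 CPM in the non-radiated and 406, 334 and 321 CPM in the radiated libraries. Every radiated library lay above every non-radiated one. Bgn rose 1.38-fold (log2 fold change 0.47 with an SE of 0.10, adjusted p 0.0267 by edgeR). Its call was lost without non-radiated library 1 (adjusted p 0.0586), non-radiated library 2 (0.0962) or radiated library 1 (0.0812), with a range of 3.95e-05 to 0.0962 over 16 settings.

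Dcn (ENSMUSG00000019929), which encodes decorin, the collagen-binding proteoglycan most similar to biglycan, did not pass the test. It had 148, 91.3 and 101 CPM in the non-radiated and 130, 119 and 86.5 CPM in the radiated libraries. The lowest library was a radiated one and the highest a non-radiated one, and the groups overlapped. The Dcn log2 fold change was -0.02 (edgeR adjusted p 0.962), with a 95% interval on the ratio from 0.734-fold to 1.32-fold, and its sign changed under 4 of 15 alternatives.

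The relation between these genes could be read within each library, where it does not depend on how libraries are scaled. The Bgn level per kb was 0.628, 0.843 and 0.915 times the Dcn level in the non-radiated libraries and 1.07, 0.961 and 1.27 times in the radiated ones. The radiated ratios all lay above the non-radiated ones. The two-sided exact permutation p was 0.1, the smallest that 3 libraries against 3 can give. The ratio restates the counts already tested for Bgn and Dcn and adds no separate support.

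Aspn (ENSMUSG00000021388) encodes asporin, a class I protein with an aspartate-rich stretch and no glycosaminoglycan chain, found around periosteum, ligament and cartilage. It had 11.6, 6.51 and 2.97 CPM in the non-radiated and 15.6, 12.8 and 6.90 CPM in the radiated libraries. The groups overlapped, and the log2 fold change was 0.75 with an SE of 0.43 (adjusted p 0.376 by edgeR). It was 1.34 when non-radiated library 1 was left out and 0.36 when non-radiated library 3 was. Same-numbered libraries differed in the same direction, by 0.43, 0.97 and 1.21 on the log2 scale for numbers 1, 2 and 3. With the replicate number as a block Aspn was called higher, by 0.84 on the log2 scale (edgeR adjusted p 0.0115, range over 16 settings 0.00790 to 0.747).

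In class II, Fmod and Prelp rose, while Lum and Omd did not pass the test and Kera was barely detected. Fmod (ENSMUSG00000041559) encodes fibromodulin, a keratan sulfate proteoglycan that binds fibrillar collagen. It had 23.6, 17.1 and 12.9 CPM in the non-radiated and 39.6, 47.0 and 31.9 CPM in the radiated libraries. The lowest radiated library was well above the highest non-radiated one. Fmod rose 2.21-fold (log2 fold change 1.15 with an SE of 0.21, adjusted p 0.0105 by edgeR). It was the only member called in all 16 settings, with log2 fold changes from 0.89 to 1.40.

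Prelp (ENSMUSG00000041577) encodes a protein with an arginine-rich and proline-rich end that binds heparin and collagen. It had 21.3, 17.2 and 17.8 CPM in the non-radiated and 31.1, 28.3 and 24.9 CPM in the radiated libraries, with no overlap between groups. Prelp rose 1.49-fold (log2 fold change 0.58 with an SE of 0.11, adjusted p 0.0118 by edgeR). Without non-radiated library 2 its adjusted p was 0.0548, and without radiated library 1 it was 0.0537.

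Lum (ENSMUSG00000036446), the lumican gene, had 79.1, 45.9 and 42.2 CPM in the non-radiated and 75.7, 53.5 and 46.9 CPM in the radiated libraries. Number 1 was the highest library of each group, and the groups overlapped. The log2 fold change was 0.07 (edgeR adjusted p 0.903), with a 95% interval on the ratio from 0.721-fold to 1.53-fold. Fmod and Lum, both keratan sulfate proteoglycans known to bind the same region of collagen, stood in a ratio of 0.187, 0.234 and 0.192 without radiation and 0.329, 0.552 and 0.426 with it, in levels per kb. The ratios did not overlap between groups (two-sided exact permutation p 0.1, the smallest possible). They restate the counts already tested for Fmod and Lum and add no separate support.

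Omd (ENSMUSG00000048368), which encodes osteoadherin of mineralized matrix, had 6.97, 2.87 and 4.53 CPM in the non-radiated and 7.71, 5.49 and 6.48 CPM in the radiated libraries. Non-radiated library 1 lay among the radiated ones. The log2 fold change was 0.44 (edgeR adjusted p 0.407), with a 95% interval on the ratio from 0.885-fold to 2.07-fold. Kera, the keratocan gene known from the cornea and also made in tendon, had 3, 3 and 0 counts in the non-radiated and 3, 25 and 6 counts in the radiated libraries. It was under the filter, and 25 of its 40 counts came from radiated library 2. With no filter its edgeR adjusted p was 0.231, so at this depth no difference could be detected.

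In class III, Ogn rose and Epyc did not pass the test. Ogn (ENSMUSG00000021390) encodes osteoglycin, also called mimecan, a matrix protein first isolated from bone. It had 23.3, 15.7 and 13.6 CPM in the non-radiated and 35.2, 32.4 and 25.2 CPM in the radiated libraries. The groups did not overlap, although non-radiated library 1 was close to radiated library 3. Ogn rose 1.76-fold (log2 fold change 0.82 with an SE of 0.19, adjusted p 0.0342 by edgeR). This was the least stable of the 4 calls, kept in 10 of 15 alternatives. It was lost without non-radiated library 2 (adjusted p 0.126) or 3 (0.0836), without radiated library 1 (0.119) or 2 (0.0657), and in the fit that adds the muscle covariate (0.121).

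Epyc (ENSMUSG00000019936), the epiphycan gene of growth plate cartilage, had 5.90, 2.08 and 4.01 CPM in the non-radiated and 3.67, 1.55 and 4.14 CPM in the radiated libraries. Library 2 was the lowest of both groups. The log2 fold change was -0.38 with an SE of 0.41 (adjusted p 0.661 by edgeR), with a 95% interval on the ratio from 0.408-fold to 1.45-fold. The 8 cartilage markers summed to 356, 94.0 and 262 CPM in the non-radiated and to 164, 116 and 208 CPM in the radiated libraries, with library 2 again the lowest of both groups. The part of growth plate tissue in the Epyc values was not tested.

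**Figure D2:**
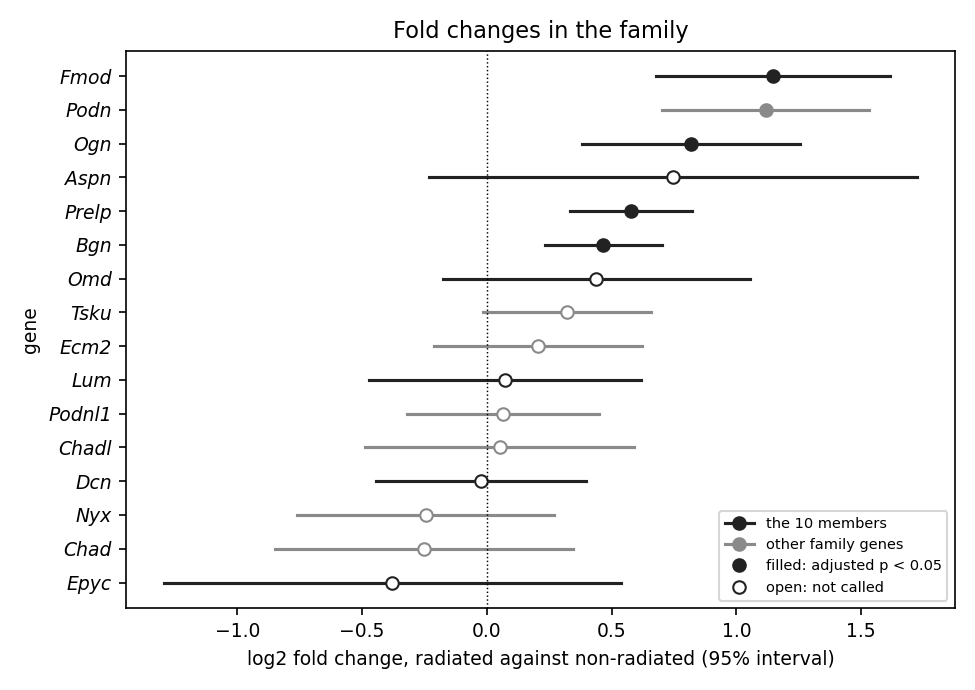
Log2 fold change of radiated against non-radiated femur with its 95% interval for the 9 tested members (black) and 7 other tested SLRP genes (grey), filled where the edgeR adjusted p was under 0.05. The filled points are Fmod, Podn, Ogn, Prelp and Bgn, from 1.15 down to 0.47.

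The calls of Bgn, Prelp and Ogn were lost when either of 2 libraries was left out. Without non-radiated library 2, the one dominated by AY036118, only Fmod was called among the members (edgeR adjusted p 0.0476), and the share called among all genes fell to 4.22%. Without radiated library 1 again only Fmod was called (edgeR adjusted p 0.0369), with 3.99% of all genes. The log2 fold changes of Bgn, Prelp and Ogn were 0.37, 0.51 and 0.73 in the first of these fits and 0.36, 0.50 and 0.71 in the second.

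**Figure D3:**
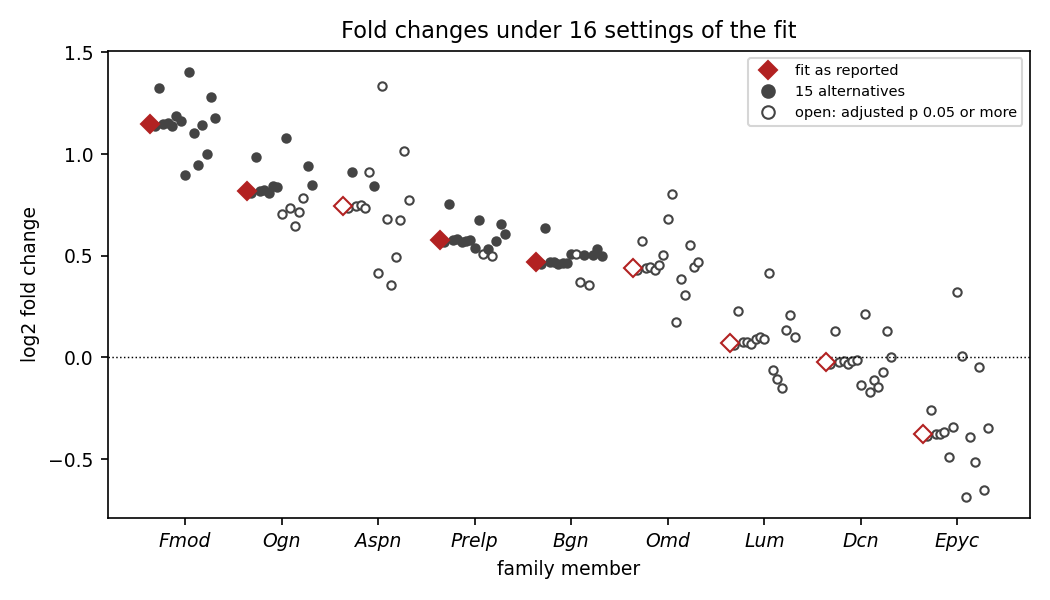
Log2 fold change of each tested member under 16 settings of the fit, with the reported fit as a red diamond and the 15 alternatives as circles, filled where the adjusted p was under 0.05. Fmod is filled throughout, and Dcn, Lum and Epyc have values on both sides of 0.

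The share of each member in the family could be compared within libraries. Dcn made up 37.8%, 35.2% and 36.4% of the summed level per kb of the 10 members in the non-radiated and 29.2%, 31.3% and 27.3% in the radiated libraries. Fmod made up 3.63% ± 0.637 in non-radiated and 6.59% ± 1.11 in radiated libraries (mean ± SD, n = 3 each), and Ogn 4.63% ± 0.538 and 6.68% ± 0.268. The shares of Dcn, Fmod, Ogn and Prelp did not overlap between groups. Each had a two-sided exact permutation p of 0.1, the smallest possible, and 0.25 with Benjamini-Hochberg adjustment over the 10 shares, so none passed a threshold that this design could not reach. The share of Bgn was 28.9% ± 4.84 and 32.0% ± 2.34 with overlap (exact permutation p 0.4, adjusted 0.5). Between libraries of the same number it was higher in the radiated one for all 3 numbers, at 23.7% and 31.3%, 29.7% and 30.1%, and 33.3% and 34.6%. The Aspn share was likewise higher, and those of Lum and Epyc lower, in the radiated library of each number, with overlapping groups.

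**Figure D4:**
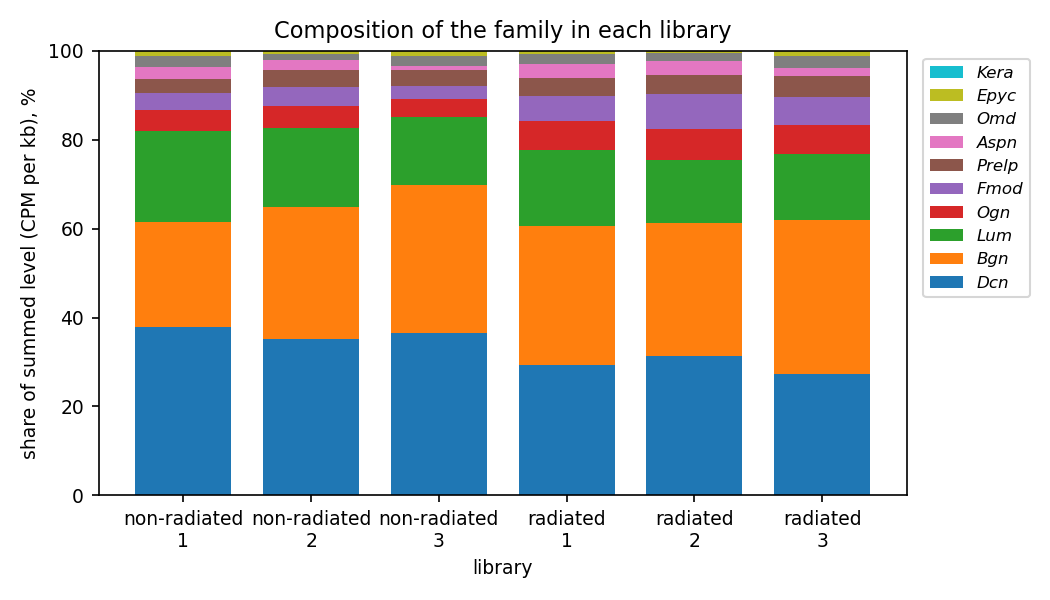
Share of each member in the summed level per kb of the 10 members, as stacked bars that add to 100% in each library. The Dcn share is 35.2% to 37.8% in the non-radiated and 27.3% to 31.3% in the radiated libraries.

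Members that rose were not confined to 1 genomic cluster. Fmod and Prelp, the pair on chromosome 1, both rose, and Optc beside them had 1, 4 and 6 counts in the non-radiated and 5, 11 and 10 counts in the radiated libraries. On chromosome 13 Ogn rose, while Omd, Aspn and Ecm2 (log2 fold change 0.21, edgeR adjusted p 0.589) did not pass the test. On chromosome 10 no tested gene of the cluster passed it. Over the 6 libraries, log2 CPM values of the 36 pairs of tested members had positive Pearson correlations in 32 pairs. They were highest for Fmod with Ogn (0.973) and Ogn with Prelp (0.970) and lowest for Fmod with Epyc (-0.290). The median was 0.739 for the 7 pairs on the same chromosome and 0.590 for the other 29. The values include the difference between groups. With group means subtracted, Dcn with Prelp stood at 0.984 (0.390 before), Fmod with Ogn at 0.915 and Bgn with Fmod at 0.119 (0.793 before). The 6 libraries share group, scaling and tissue makeup, and the values are a description. Among 10033 genes averaging 10 CPM or more, those most like Bgn over the 6 libraries were Cdh5 (r = 0.996), Oas2 (0.995) and Mxra8 (0.993). Those most like Dcn were Rpl31-ps8 (0.961), Mrps15 (0.957) and Ly86 (0.952).

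Of 8 further SLRP genes 7 were tested, and 1 of them, Podn, rose (14.3% called, against 7.8% of all genes tested). Podn, which encodes podocan, had 2.96, 3.11 and 4.34 CPM in the non-radiated and 8.21, 8.33 and 6.18 CPM in the radiated libraries, with no overlap. Its log2 fold change was 1.12 with an SE of 0.18 (adjusted p 0.00659 by edgeR), and it was called in all 16 settings. Chad, the chondroadherin gene, had the highest mean CPM of them, with 30.7 ± 10.8 CPM in non-radiated and 25.9 ± 6.62 CPM in radiated libraries (mean ± SD, n = 3 each, edgeR adjusted p 0.655). The median log2 fold change of the 7 was 0.07.

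Muscle RNA moved with the groups in part, while connective tissue markers, given below, went in both directions. All 12 muscle markers had positive log2 fold changes, with a median of 2.28, and none was called. All 12 had an unadjusted p under 0.05 by edgeR, against 21.5% of all genes tested. Myh4, with the highest mean CPM of the list, was called higher in 4 of 15 alternatives. The highest Fmod value, 47.0 CPM, was in radiated library 2, which held the most muscle RNA. Radiated library 3 held 198 CPM of muscle markers, within the non-radiated range of 167 to 343, and its Fmod, Ogn, Prelp and Bgn values lay above those of all 3 non-radiated libraries, as did its value of Thbs4, a gene of tendon and muscle, at 5.27 CPM against at most 3.21 CPM. With the mean log2 level of the muscle markers as a covariate, Fmod stood at 0.89 on the log2 scale (edgeR adjusted p 0.0388), Prelp 0.54 (0.0487), Bgn 0.51 (0.0499) and Ogn 0.70 (0.121). Without radiated library 2, Fmod stood at 1.0 on the log2 scale (edgeR adjusted p 0.0196). The part of muscle RNA in the SLRP values was not tested.

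**Figure D5:**
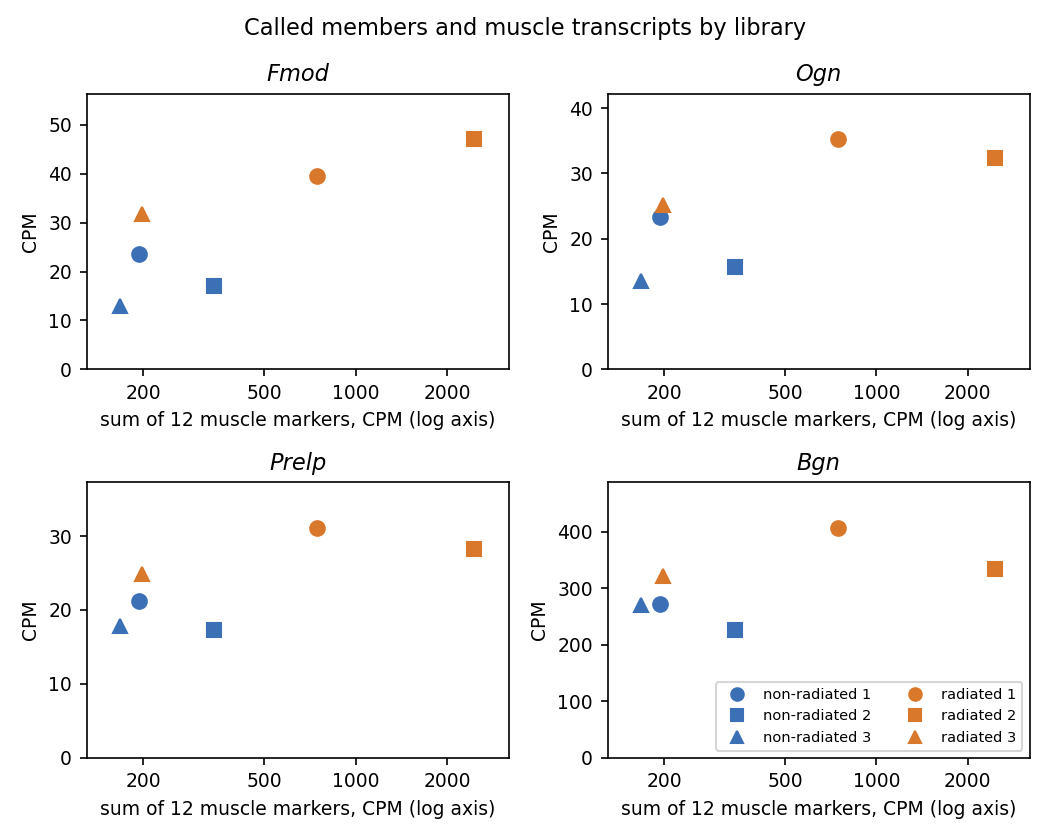
CPM of the 4 called members against the summed CPM of 12 skeletal muscle markers (log axis) in each library. Radiated library 3, at 198 CPM of muscle markers, lies above the non-radiated libraries in all 4 panels.

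Of 11 markers of fibroblasts, periosteum and tendon, 10 were tested. Their median log2 fold change was 0.92, and 2 rose and 1 fell (30% called, against 7.8% of all genes tested). The median rests in part on thinly counted genes, and the share called includes Mfap5, which passed the filter through the radiated group. Both values are therefore descriptions. Scx had 5, 5 and 11 counts in the non-radiated and 13, 24 and 16 counts in the radiated libraries. It averaged 0.199 CPM without and 0.384 CPM with radiation, and Clec3b 0.226 and 0.718 CPM. The 3 markers with the highest mean CPM, Postn, Pdgfra and Pi16, had log2 fold changes of 0.35, -0.63 and -0.20. Thbs4, a tendon and muscle matrix gene, had 3.21, 2.28 and 1.42 CPM in the non-radiated and 7.61, 14.98 and 5.27 CPM in the radiated libraries (log2 fold change 2.02, edgeR adjusted p 0.0165). Mfap5, a microfibril gene, rose from 0.193 ± 0.00557 to 1.03 ± 0.785 CPM (mean ± SD, n = 3 each, edgeR adjusted p 0.0348). Its counts were 7, 5 and 8 in the non-radiated and 25, 103 and 22 in the radiated libraries, so it passed the filter through the radiated group. Thbs4 had an adjusted p of 0.0633 without non-radiated library 2 and 0.0548 without library 3 of that group, and the call of Mfap5 was lost when radiated library 2 or any 1 of the non-radiated libraries was left out (0.0528 to 0.115), with voom (0.0929) and with the muscle covariate (0.121). The tendon marker Tnmd, under the filter, had 3, 3 and 3 counts in the non-radiated and 17, 57 and 5 counts in the radiated libraries. Pdgfra, a receptor of mesenchymal cells, fell by 0.63 on the log2 scale (edgeR adjusted p 0.0112). The summed level of the list was 169 to 242 CPM in non-radiated and 166 to 228 CPM in radiated libraries, so it overlapped. Postn, with the highest mean CPM of them, had 89.2 ± 40.1 and 114 ± 19.998 CPM (mean ± SD, n = 3 each, edgeR adjusted p 0.507, and 0.0399 without non-radiated library 1). The part of periosteal and tendon tissue in the SLRP values was not tested.

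Markers of the other cell types that could supply these transcripts went in different directions. Of 12 osteoblast and osteocyte markers 11 had negative log2 fold changes, and 3 fell (25% called, against 7.8% of all genes tested). Runx2 fell by 0.47, Phex by 1.04 and Ifitm5 by 1.08 on the log2 scale (edgeR adjusted p 0.00396, 0.00909 and 0.0108). Spp1, the osteopontin gene, with the highest mean CPM of the 12 markers, was not called (edgeR adjusted p 0.264). All 6 marrow stroma markers had negative values, and 1 was called (16.7%, against 7.8% of all genes tested). It was Lepr, which fell by 0.48 (edgeR adjusted p 0.00381). Cxcl12, with the highest mean CPM of the 6, was not called (edgeR adjusted p 0.0515). It was called lower in 6 of 15 alternatives (adjusted p over all settings 0.000406 to 0.855). The calls of Runx2, Lepr and Pdgfra were lost under library totals alone, and that of Ifitm5 with the muscle covariate. All 7 adipocyte markers rose (100% called, against 7.8% of all genes tested). Plin4 rose by 3.16, Pck1 by 3.69 and Cidec by 3.96, and Lpl, with the highest mean CPM, by 1.08 on the log2 scale (edgeR adjusted p 1.53e-05, 1.53e-05, 5.73e-05 and 0.000147). Of 8 cartilage markers 1 was called (12.5%, against 7.8% of all genes tested), Comp, which rose by 0.77 (edgeR adjusted p 0.00705). Col10a1, with the highest mean CPM of them over the 6 libraries though not over the radiated ones, was not called (log2 fold change -2.30, edgeR adjusted p 0.0587). It was called lower in 4 of 15 alternatives (adjusted p over all settings 5.30e-21 to 0.314). These included the replicate block (edgeR adjusted p 0.0364) and the fit without non-radiated library 2 (0.000242).

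The collagens that SLRPs coat did not move in 1 direction. Of 13 fibril-forming and fibril-associated collagen genes 2 rose and 2 fell, or 30.8% called against 7.8% of all genes tested. Col12a1, which encodes a collagen on the fibril surface, rose from 147 ± 33.6 to 244 ± 19.4 CPM (mean ± SD, n = 3 each, log2 fold change 0.72, edgeR adjusted p 0.0139). Col6a1, of the beaded microfibrils that bind biglycan and decorin, rose by 0.43 on the log2 scale (edgeR adjusted p 0.0342). Col12a1 was no longer called on leaving out radiated library 1 (0.0573) or non-radiated library 3 (0.0553), and the call of Col6a1 was lost under 6 of 15 alternatives. These were library totals alone (0.0659), the muscle covariate (0.166) and leaving out library 1 or library 2 of either group (0.0852 to 0.132). Col11a2, a chain of a cartilage collagen, fell from 199 ± 45.6 to 89.9 ± 19.3 CPM (mean ± SD, n = 3 each, log2 fold change -1.15, edgeR adjusted p 0.00600). Col1a1, the main chain of bone collagen, fell by 0.61 on the log2 scale (edgeR adjusted p 0.0470), a call kept in 8 of 16 settings and lost in each fit that left out a library except the one without non-radiated library 2. Bgn rose in the same libraries in which Col1a1 fell.

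Genes that build chondroitin and dermatan sulfate chains moved in both directions. Of 22 such genes 1 rose and 3 fell, or 18.2% called against 7.8% of all genes tested, with a median of -0.02. Chst3, a chondroitin 6-O-sulfotransferase, had 66.9, 58.7 and 71.5 CPM in the non-radiated and 119, 113 and 135 CPM in the radiated libraries. Its log2 fold change was 0.89 (edgeR adjusted p 0.000406), called in all 16 settings. Csgalnact1 and Csgalnact2, which add the first chondroitin sugar, fell by 0.49 and 0.36 (edgeR adjusted p 0.00838 and 0.00582), and Chst11, a 4-O-sulfotransferase, fell by 0.25 (0.0197). These 3 calls were lost under library totals alone, and that of Chst11 also with the muscle covariate and on leaving out radiated library 1, radiated library 2, or library 1 or 3 of the non-radiated femurs. Of 8 tested genes for keratan sulfate synthesis none was called by edgeR, and 1 had an unadjusted p under 0.05. B4galt1, with the highest mean CPM of them, stood at -0.04 on the log2 scale (edgeR adjusted p 0.758).

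Among 14 growth factors and receptors that SLRPs are known to bind, 4 rose and none fell, with a median of 0.02. That was 28.6% called, against 7.8% of all genes tested. Lrp1, a large endocytic receptor that takes up decorin, rose from 439 ± 37.9 to 646 ± 73.4 CPM (mean ± SD, n = 3 each, log2 fold change 0.56, edgeR adjusted p 0.00844). The ligands Tgfb2, Bmp4 and Tgfb3 rose by 0.61, 0.70 and 0.52 on the log2 scale (edgeR adjusted p 0.0122, 0.0355 and 0.0479). The call of Tgfb3 was lost with the replicate block (edgeR adjusted p 0.0606), and those of Tgfb2 (0.0589) and Tgfb3 (0.0878) under library totals alone. The calls of Bmp4 and Tgfb3 were lost with voom (0.0571 and 0.0585) and with the muscle covariate (0.192 and 0.206). None of the 3 ligands was called once radiated library 1, or once library 2 of the non-radiated femurs, was left out (adjusted p 0.0529 to 0.164). The calls of Bmp4 and Tgfb3 also depended on radiated library 2 and on library 1 of the non-radiated femurs, and that of Bmp4 on library 3 of the non-radiated femurs. Tgfb1 was not called, at 63.8 and 63.5 CPM.

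Of 9 proteases known to cut SLRPs 2 rose, Mmp12 and Mmp2, or 22.2% called against 7.8% of all genes tested. Mmp12, the macrophage elastase gene, had 1.59, 1.52 and 1.06 CPM in the non-radiated and 8.93, 8.69 and 6.43 CPM in the radiated libraries (log2 fold change 2.54, edgeR adjusted p 9.61e-05). Mmp2, the gelatinase A gene, rose from 50.8 ± 7.16 to 100.01 ± 9.52 CPM (mean ± SD, n = 3 each, log2 fold change 0.98, edgeR adjusted p 0.000679). Mmp9, with the highest mean CPM of them, was not called (edgeR adjusted p 0.823). Of 14 tested genes for fibril processing and cross-linking 1 rose (7.14% against 7.8% of all genes tested), Tll2, a tolloid-like protease gene. It had 1, 4 and 6 counts in the non-radiated and 23, 53 and 32 counts in the radiated libraries (edgeR adjusted p 0.00672), and it passed the filter through the radiated group. Bmp1, the related protease that trims the propeptide of biglycan, had 47.9 ± 8.75 and 51.8 ± 5.47 CPM (mean ± SD, n = 3 each, edgeR adjusted p 0.695), and Adamts2, with the highest mean CPM of the list over the 6 libraries though not over the non-radiated ones, was not called (edgeR adjusted p 0.198).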

How the data were processed

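Gene counts were analysed from 3 radiated and 3 non-radiated libraries. The authors deposited raw counts, whole numbers per gene, in 1 column per library. The RPKM values deposited by the authors, scaled by length and library, were used for no test. Gene lengths are those of the deposited table. STAR 2.5.2b, featureCounts of Subread, bcl2fastq and build mm10 are named per the submitters' processing notes. The annotation and the use of strand are not given in the sources used here.

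Low counts were removed by filterByExpr at its minimum count of 10 and minimum total of 15, and the rest were scaled by TMM and tested with glmQLFit and glmQLFTest of edgeR 4.0.16 in R 4.3.3, with group as the only term and Benjamini-Hochberg adjustment over 18757 genes. A gene is called at an adjusted p under 0.05. The SE is the log2 fold change divided by the square root of F, and 95% intervals use it with edgeR's degrees of freedom. In simulated counts for 18757 genes, 88.7% of tested genes changed 2-fold were recovered. The simulation gave every gene the same spread between libraries (coefficient of variation 12.9%). Its share therefore does not carry over to noisier members, such as Aspn and Epyc, or to smaller changes.

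Libraries with the same number deviated together (correlations 0.160, 0.261 and 0.181 across genes, against -0.161 to -0.0138 for different numbers), which meets the rule used here for numbers that pair libraries. The labels state no pairing. The reported tests and permutations are unpaired, and the fit with the replicate number as a block is an alternative. Replicates differed by more than sampling noise (chi-square per degree of freedom 17.8 to 631).

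The members and lists were chosen with earlier results of these data known. Besides the members, each list names up to 3 called genes with the smallest p and its gene of highest mean CPM over the 6 libraries, and Bgn and Dcn the 3 genes most like each. Tgfb3, Tgfb1, Chst11, Bmp1 and Tnmd were named after their values were seen, as were Cenpp and other overlapping genes. Alternatives were other scalings and filters, DESeq2 1.42.0, voom of limma 3.58.1, the replicate block, a muscle covariate, and leaving out each library. Library totals without AY036118 and Gm26917 were added after seeing the data.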

Additional observations from a re-analysis of the deposited data

How the results depend on the processing

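Leaving out each library in turn gave 1 to 4 called members and 764 to 1376 called genes in all (3.99% to 7.25% of those tested). The count of genes was 905 without non-radiated library 1, 819 (and 1 member) when non-radiated library 2 was left out, and 764 (and 1 member) when radiated library 1 was. The other alternatives gave 3 to 5 called members, all higher. With the replicate block 5 members were called and 1670 genes in all (8.9% of those tested). Beside Aspn the block changed no call among the members, and among the other named genes it added Col10a1 and Myh4 and lost Tgfb3.

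Some uncalled values changed sign. Under library totals alone the log2 fold changes of Dcn, B4galt1 and Mmp9 were 0.13, 0.15 and 0.12, and that of Dcn was 0.0041 under library totals without AY036118 and Gm26917. With the muscle covariate Epyc, Chad and B4galt1 were at 0.32, 0.20 and 0.022. Over the fits that each left out a library, Dcn ran from -0.17 to 0.21 (without non-radiated library 1) and was also positive without radiated library 3 (0.13). Lum ran from -0.15 (without radiated library 1) to 0.41 and was also negative without non-radiated libraries 2 (-0.061) and 3 (-0.10). Epyc ran from -0.68 to 0.0050 (without non-radiated library 1), and Mmp9 from -0.14 to 0.055 (without non-radiated library 3), with 0.031 when radiated library 3 was left out. The cause was not tested. Of 703 values of named genes under alternatives, 607 kept their direction and side of the threshold, 64 lost a call, 17 gained one and 15 changed sign. Kera and Optc were too thinly counted to test.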
